A study of Mus musculus with 16 samples.

Results

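The 31 genes described here carry out and control the synthesis of cholesterol and fatty acids. They were chosen by name, as the noncontrol array probes whose gene name is one of the 31, and 1 value per gene was taken from the probe with the highest mean signal. All 31 were on the array, on 47 probes, among 24335 genes with a symbol, and 30 of them were among the 17249 genes that could be tested. They were set apart as 17 sterol enzymes, 6 regulators and sterol carriers, and 8 fatty acid genes.

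The samples were 2 sorted bone marrow progenitors of the dendritic cell lineage, monocyte-dendritic cell progenitors (MDPs) and the common dendritic cell progenitors (CDPs) that follow them. They came from female C57/Bl6 mice that carried an orthotopic PyMT-B6 tumor 1.5 cm across, grown from 1 cell line of the MMTV-PyMT mammary tumor model, or from age-matched mice without a tumor. Each of the 4 groups held 4 samples, and each sample pooled 2 mice, so that the spread is between pools and not between single mice. The labels name no other allele or agent in any group.

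Cholesterol is built from acetyl-CoA through mevalonate, isoprenoid units, squalene and lanosterol, and fatty acids are built from the same acetyl-CoA through malonyl-CoA, after which they are elongated and desaturated. Both routes are switched on by the SREBP transcription factors, SREBP2 (encoded by Srebf2) mainly for sterols and SREBP1 (Srebf1) mainly for fatty acids. SCAP escorts them from the endoplasmic reticulum when sterol is scarce, and the INSIG proteins hold SCAP back when sterol is plentiful. Dividing blood progenitors need both lipids for new membrane.

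The DNA just upstream of 3 members is shown because the results below turn on Srebf2, Fads2 and Hmgcs1, and because the Hmgcs1 window held the sterol regulatory element searched for. The 250 bases before the start of each are given, 5′ to 3′, from the RefSeq promoter table on build GRCm38.p6, with each searched motif in capitals on whichever strand it was read.
Srebf2, chr15:82147019-82147268, plus strand: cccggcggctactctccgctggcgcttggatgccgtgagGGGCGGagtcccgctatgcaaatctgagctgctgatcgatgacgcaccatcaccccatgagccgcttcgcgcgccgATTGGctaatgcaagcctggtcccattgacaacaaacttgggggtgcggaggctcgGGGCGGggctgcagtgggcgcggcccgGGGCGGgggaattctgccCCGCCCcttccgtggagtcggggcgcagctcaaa
Fads2, chr19:10101504-10101753, minus strand: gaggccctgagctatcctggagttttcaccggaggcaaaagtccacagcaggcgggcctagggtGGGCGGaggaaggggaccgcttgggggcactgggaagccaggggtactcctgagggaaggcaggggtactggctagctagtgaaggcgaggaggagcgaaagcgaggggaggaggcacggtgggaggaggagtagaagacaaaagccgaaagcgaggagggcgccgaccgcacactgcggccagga
Hmgcs1, chr13:119690101-119690350, plus strand: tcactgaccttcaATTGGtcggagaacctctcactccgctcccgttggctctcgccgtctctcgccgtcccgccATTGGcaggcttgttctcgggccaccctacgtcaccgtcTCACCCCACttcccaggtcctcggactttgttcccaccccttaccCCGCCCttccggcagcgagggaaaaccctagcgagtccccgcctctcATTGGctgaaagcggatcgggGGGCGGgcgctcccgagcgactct
The motifs, read on both strands over 250 bases before and 50 after the start, were the sterol regulatory element core TCACCCCAC, the same with any base in place of its middle C (TCACNCCAC, which includes the first), the NF-Y box CCAAT, the GC box GGGCGG and the E-box CACGTG. A window was held for 24 members, 5 of them with several windows. It was not held for Sqle, Fdft1, Fdps, Stard4, Scd1, Scd2 and Fads1. TCACCCCAC was in the window of 1 member of 24, Hmgcs1, and in 0.614% of all 27025 genes with a window, and TCACNCCAC was in the same member and in 1.44% of all genes. CCAAT was in 19 of 24 members against 41.1% of all genes, GGGCGG in 20 against 38.2%, and CACGTG in 4 against 8.09%. The Fads2 window held GGGCGG alone of these motifs, and the Srebf2 window held both CCAAT and GGGCGG. These are matches of letters in a short window.

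The signals are from 16 one-colour arrays, and 58.8% to 71.5% of the probes on an array were well above background. A level is given as a normalized signal, the log2 signal of the probe minus the 75th percentile of its array, so that 0 lies at that percentile. Levels of different probes are not compared. The array count limits the precision, and the median standard error (SE) of a tumor difference over all tested probes was 0.306. The 16 arrays lay on 4 slides, and slide alone took up a median of 48.6% of the variance of a tested gene. Of the groups compared, tumor-bearing CDPs had no array on slide 1 and tumor-bearing MDPs had none on slide 4. Among the members, 28 were well above background on all 16 arrays, Lss on 15, Cyp51 on 6 and Scd1 on none, so that Scd1, the stearoyl-CoA desaturase of liver and fat, was not tested. The within-group SD of the members ran from 0.11 for Lbr to 1.19 for Cyp51.

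In CDPs, where the comparison asks which genes differ with a tumor, 0 of 30 members passed the test (limma, false discovery rate (FDR) under 0.05 over all tested probes and fold change above 1.5), against 1.97% of all genes tested. At an unadjusted p under 0.05 there were 3 of 30 members, all lower in tumor-bearing mice (Fads2, Srebf2 and Stard4), against 14.1% of all genes in either direction. The 4 arrays of one group lay clear of the 4 of the other for 2 members, Fads2 and Srebf2, which is 6.67% of the members against 10.8% of all genes. Both shares were below the background. As these are bulk samples, fewer cells that express a gene and less RNA per cell cannot be told apart.

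Fads2, the delta-6 desaturase that makes the first double bond on the way to long polyunsaturated fatty acids, had the smallest p of the members. Its normalized signal in tumor-free CDPs was 1.27, 1.40, 1.22 and 0.66, and in tumor-bearing CDPs it was -0.10, -0.29, 0.38 and 0.44. The lowest tumor-free array was still above the highest tumor-bearing one. The means were 1.14 ± 0.32 and 0.11 ± 0.36 (SD, n = 4), a difference of -1.03 ± 0.27 (log2, SE; limma adjusted p = 0.0753), or 2.04-fold. With 4 against 4 arrays the exact two-sided permutation test gave p = 0.0286, the smallest it can give. Within the 3 slides that held both groups the difference was -0.83, -0.83 and -1.59. With slide as a block it was -1.10 ± 0.22 (limma adjusted p = 0.0168), and Fads2 passed. A second probe, above background on 13 of 16 arrays, gave -1.34 (limma adjusted p = 0.143).

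Srebf2, the regulator of the sterol genes, was at 1.48, 1.14, 1.37 and 1.34 in tumor-free CDPs and at 0.81, 0.49, 1.01 and 0.70 in tumor-bearing CDPs. As for Fads2, no tumor-bearing array reached the lowest tumor-free one. The difference was -0.58 ± 0.17 (log2, SE; limma adjusted p = 0.110; exact permutation p = 0.0286), or 1.49-fold. Within slides it was -0.36, -0.78 and -0.49, and with slide as a block -0.53 (limma adjusted p = 0.0722). The other Srebf2 probe differed by -0.34 (limma adjusted p = 0.610). Both probes are printed on chromosome 15 in the files, on build mm9, the first at 82034765 to 82034824 and the second at 82030068 to 82030127.

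Stard4, which carries cholesterol between membranes, was at -0.60, -1.13, -0.16 and -0.04 in tumor-free CDPs and at -1.05, -1.40, -0.89 and -1.24 in tumor-bearing CDPs. These groups overlapped, since the tumor-free array at -1.13 lay among the tumor-bearing ones. The difference of -0.66 ± 0.28 (limma adjusted p = 0.289; exact permutation p = 0.0857) was -0.43 with slide as a block (limma adjusted p = 0.128), and within slides it was -0.73, -0.64 and -0.10.

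**Figure D1:**
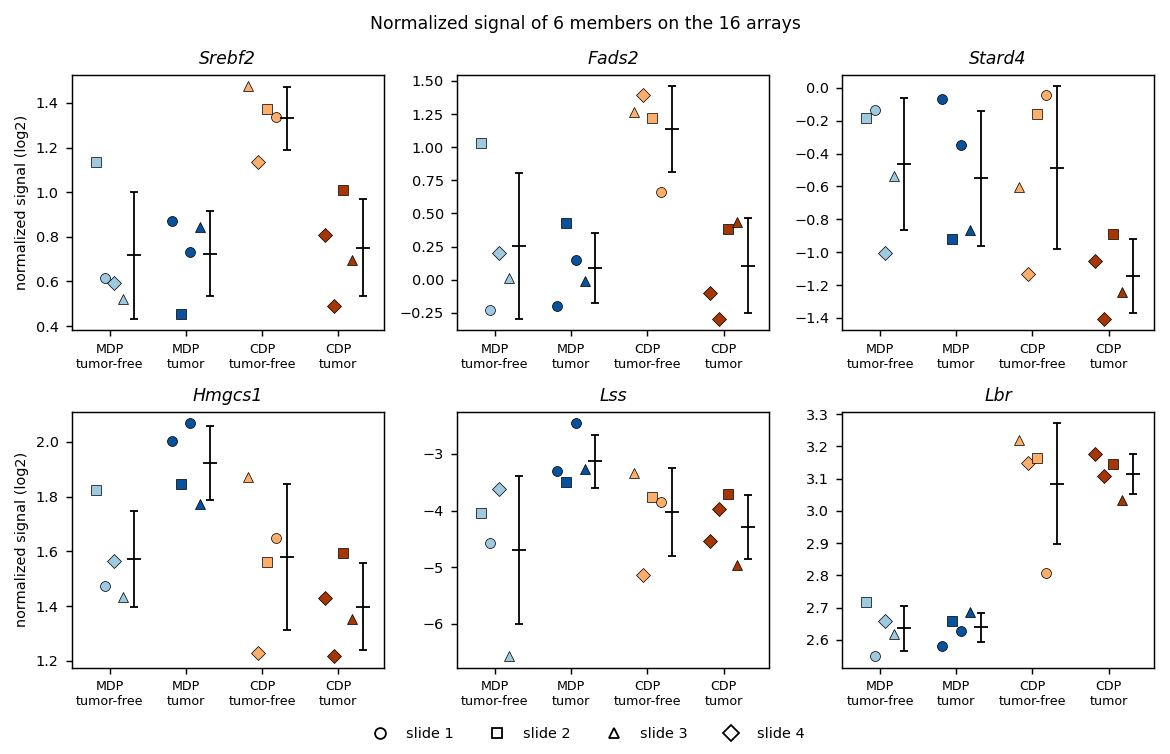
Normalized signal (log2, 0 at the 75th percentile of the array) of 6 members on each of the 16 arrays by group, with the shape of a point giving its slide and the bar giving the mean ± SD of 4 arrays. Tumor-free CDPs stood highest for Srebf2 and Fads2, with a mean Fads2 signal of 1.14 against 0.11 in tumor-bearing CDPs, and both CDP groups lay above both MDP groups for Lbr.

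Of 9 surface and lineage genes listed for these progenitors 8 were well above background on every array of each group. Among the 8 was Ly6a, which encodes Sca1, and the study sorted its earlier myeloid progenitors as Sca1-negative. Ly6a was higher in CDPs than in MDPs of tumor-bearing mice and passed the test. Il7r was above background on 2 of the 16 arrays, tumor-free CDP replicate 5 (-2.74) and tumor-bearing CDP replicate 3 (-4.39). Kit, a receptor commonly higher on MDPs than on CDPs, had a normalized signal of 1.57 to 1.82 in tumor-free MDPs and of -1.33 to -0.66 in tumor-free CDPs. It was lower still in tumor-bearing CDPs, at -2.68 to -1.77 (-1.34 ± 0.20, limma adjusted p = 0.0043), the direction of Fads2 and Srebf2 in that comparison. Between tumor-free MDPs and CDPs the directions were opposite. There Kit was lower in CDPs (-2.59), and the means of Fads2 and Srebf2 were higher. Other marker lists moved with tumor as well. The mean signal of 6 monocyte and macrophage genes went from between -1.23 and -0.12 in tumor-free CDPs to between 0.08 and 0.75 in tumor-bearing CDPs, with 2 of 6 passing. That of 11 neutrophil and granule genes went from between -0.16 and 1.12 to between 0.74 and 1.32, ranges that overlap. Of these 11 genes 8 were higher, 2 of them passing (Elane and Lcn2), and 3 were lower (Ltf, Camp and Ngp). The mean signal of 5 conventional dendritic cell genes went from between -1.71 and -1.37 to between -3.76 and -2.35, with 1 of 4 tested passing. Xcr1 was at background in all 4 groups. In tumor-bearing MDPs Cd209a of the dendritic cell list was lower (-3.55, limma adjusted p = 0.0113). It was above background on 0 of 4 of these arrays, so that the size of its difference is not known. Lcn2 of the neutrophil list was higher (2.16, limma adjusted p = 0.0489). The medians were -2.19 over 4 dendritic cell genes and 0.08 over 11 neutrophil and granule genes. Of 9 erythroid genes tested 8 were lower in tumor-bearing CDPs and 9 in tumor-bearing MDPs, none past the test. Some genes of other lineages were above background on 4 of 4 arrays in a group, 3 of 6 B cell genes in each group, 3 or 4 of 6 T and NK cell genes and 1 of 4 mammary epithelial genes, and none of these lists had a gene past the test with tumor. Of 4 plasmacytoid dendritic cell genes 2 were higher and 2 lower in tumor-bearing CDPs, and 1 of these passed the test (Bst2, lower by 1.61-fold), and of 14 cell cycle genes, 2 mast cell and basophil genes and 2 megakaryocyte genes tested none passed with tumor. In tumor-free CDP replicate 5 Pf4 of the megakaryocyte list was at 0.575, against -3.063 to -2.132 on the other tumor-free CDP arrays. Gp9 was at -1.556 there against -6.89 to -6.159, while Itga2b (-1.12) lay within the range of the others. In tumor-bearing CDP replicate 5 Pf4 was at -0.48 against -4.566 to -2.94. The part of all these cell types in the differences of the members was not tested.

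In CDPs the sterol enzymes lay on both sides of 0. Of the 17 sterol enzymes 8 were higher and 9 lower in tumor-bearing mice, and none passed the test. The median difference was -0.04, and it ran from -0.15 to 0.03 under the other settings that kept all arrays. Acat2, the thiolase that joins the first acetyl units, differed by 0.37, Hmgcs1 (HMG-CoA synthase) by -0.18, Mvk (mevalonate kinase) by 0.18 and Sqle (squalene epoxidase) by -0.35. The lowest value was that of Cyp51 (lanosterol demethylase), -1.43 ± 0.78 (limma adjusted p = 0.475), which was above background on 4 of 4 tumor-free and 1 of 4 tumor-bearing arrays. Of the 6 regulators and carriers 1 was higher, Scap (0.06), and the median was -0.11. Of the 7 fatty acid genes tested 3 were higher and the median was -0.03. Fasn, the fatty acid synthase, differed by -0.04, Acly (ATP citrate lyase) by 0.22, Elovl6 (an elongase) by 0.25, Acaca (acetyl-CoA carboxylase) by 0.16 and Fads1 (the delta-5 desaturase) by -0.34. Over all genes the median was 0.07, with 57.0% higher.

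In MDPs, 0 of 30 members passed the test against 0.087% of all genes. There were 2 of 30 at an unadjusted p under 0.05, Lss and Hmgcs1, against 10.5% of all genes, and 1 without overlap between the groups, Lss, against 5.39%. Both genes had their higher mean in tumor-bearing mice.

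Lss, which closes squalene epoxide to lanosterol, was at -4.04, -4.57, -3.62 and -6.56 in tumor-free MDPs and at -3.30, -3.50, -2.46 and -3.27 in tumor-bearing MDPs. The array at -6.56 was the only one of the 16 on which Lss was not well above background. The difference was 1.57 ± 0.56 (limma adjusted p = 0.388; exact permutation p = 0.0286). Without that array it was 0.94, and after another background correction (normexp) it was 0.33. Hmgcs1 was at 1.82, 1.48, 1.56 and 1.43 in tumor-free MDPs and at 2.002, 1.84, 2.07 and 1.77 in tumor-bearing MDPs. One tumor-free array, at 1.82, reached into the tumor-bearing range. The difference was 0.35 ± 0.16 (limma adjusted p = 0.473; exact permutation p = 0.0571), and within slides it was 0.56, 0.02 and 0.34. A second Hmgcs1 probe, above background on 12 of 16 arrays, differed by -0.06.

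In MDPs 13 of 17 sterol enzymes and 6 of 7 fatty acid genes were higher in tumor-bearing mice, with medians of 0.13 and 0.17, and no member of either list passed the test. Over all genes 39.6% were higher and the median was -0.11. This shift over all genes moved with the scaling and was close to 0 after quantile normalization, where the medians of the 2 lists were 0.15 and 0.14. Leaving out 1 array moved the medians further, to 0.003 for the sterol enzymes without tumor-free MDP replicate 3 and to 0.0127 for the fatty acid genes without tumor-bearing MDP replicate 4, and up to 0.196 and 0.309. The regulators had a median of -0.10, with Srebf1 at -0.40 ± 0.26 (limma adjusted p = 0.577) and Srebf2 at 0.01 ± 0.17.

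**Figure D2:**
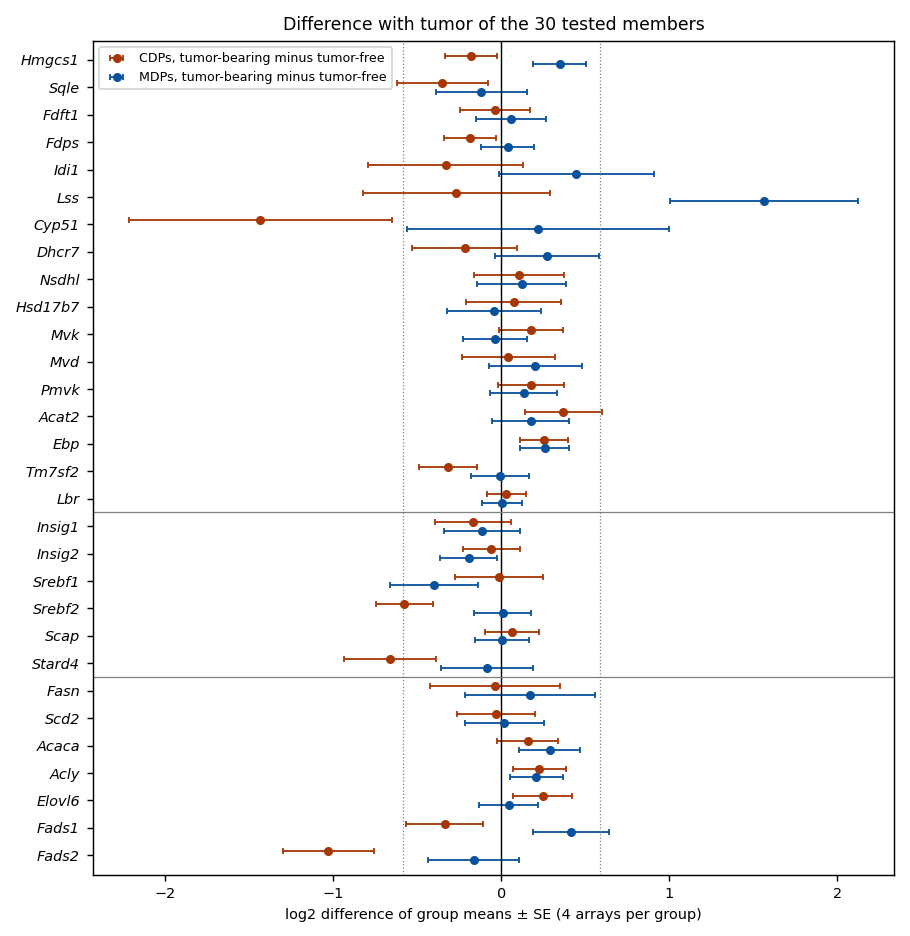
Log2 difference of tumor-bearing minus tumor-free group means (± SE, 4 arrays per group) for the 30 tested members in CDPs and in MDPs, with sterol enzymes at the top, regulators and carriers in the middle and fatty acid genes at the bottom, and dotted lines at a fold of 1.5. Fads2 (-1.03) and Cyp51 (-1.43) lay farthest to the left in CDPs and Lss (1.57) farthest to the right in MDPs, and no member passed the test.

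Whether the tumor difference itself differed between CDPs and MDPs was tested with the interaction term. None of 30 members passed, against 0.0116% of all genes. An unadjusted p under 0.05 was found for 5 of 30 (16.7%) against 4.09% of all genes, and all 5 had the lower tumor difference in CDPs. The members were chosen with earlier results of these data known, so that this share is a description. The 5 were Srebf2 (-0.59 ± 0.24), Hmgcs1 (-0.53 ± 0.22), Fads1 (-0.75 ± 0.32), Lss (-1.83 ± 0.79) and Fads2 (-0.87 ± 0.38), each with an adjusted p of 0.748 by limma. With slide as a block Fads2 alone of the 5 kept an unadjusted p under 0.05 (-0.998 ± 0.32; limma adjusted p = 0.795). The second probe of Hmgcs1 gave 0.39, that of Srebf2 -0.20 and that of Fads2 -1.43, and with normexp the Lss term was -0.48. An effect in one progenitor and not in the other is therefore not shown for any member.

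Between CDPs and MDPs of tumor-free mice, which asks what goes with the developmental step, 1 of 30 members passed the test, Srebf2, against 6.88% of all genes. It was higher in CDPs, at 1.33 ± 0.14 against 0.72 ± 0.28 (SD, n = 4), a difference of 0.61 ± 0.17 or 1.53-fold (limma adjusted p = 0.0455). The 4 MDP arrays were at 1.14, 0.62, 0.59 and 0.52, so that the highest MDP array just reached the lowest CDP array, also at 1.14 (exact permutation p = 0.0571). Within each of the 4 slides the CDP array was higher, by 0.72, 0.23, 0.96 and 0.54. The call is close to the threshold. It was lost in 12 of the 16 fits that left out 1 array, where the limma adjusted p reached 0.136 and from which Srebf2 stayed called without tumor-free MDP replicate 2, tumor-bearing MDP replicate 3 and tumor-bearing CDP replicates 3 and 4. It was lost also with the 2 probes averaged (0.54, limma adjusted p = 0.0610). The other Srebf2 probe by itself differed by 0.47 (limma adjusted p = 0.341). This comparison shares its tumor-free CDP arrays with the tumor comparison in CDPs.

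Fads2 had the same order of means. Tumor-free MDPs were at 1.03, -0.23, 0.20 and 0.01, below tumor-free CDPs by 0.88 ± 0.27 (limma adjusted p = 0.0745), and it passed with slide as a block (limma adjusted p = 0.0154). One MDP array at 1.03 overlapped the CDP range. The second Fads2 probe differed by 0.75 (limma adjusted p = 0.445). In tumor-bearing mice Fads2 differed by 0.02 ± 0.27 and Srebf2 by 0.03 ± 0.17 between the progenitors, and their second probes by -0.68 (limma adjusted p = 0.271) and 0.27 (limma adjusted p = 0.406).

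An unadjusted p under 0.05 was found for 11 of 30 members in tumor-free mice, against 18.6% of all genes. Of the 11, 8 were higher in CDPs, among them Mvd (mevalonate diphosphate decarboxylase, 0.64), Insig1 (0.52) and Fdft1 (squalene synthase, 0.45, and 0.84 on its second probe). Tm7sf2, a sterol C14 reductase, was also among the 8 (0.41), and its second probe differed by 0.16 (limma adjusted p = 0.972). The 3 that were lower were Scap (-0.46), Acaca (-0.46) and Elovl6 (-0.47). The groups did not overlap for 3 members (Cyp51, Lbr and Acaca), or 10%, against 14.5% of all genes. Cyp51 was well above background on 4 of 4 CDP arrays (-4.16, -4.12, -3.76 and -5.08) and on 0 of 4 MDP arrays of tumor-free mice. Its mean CDP signal was 1.91-fold above the floor of the MDP arrays, taken as the lowest signal well above background on each. The difference between the groups had a limma adjusted p of 0.101. The fold is not a firm minimum, as with normexp the log2 difference was 0.14.

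Lbr, the lamin B receptor, which is also a sterol C14 reductase, was singled out after its values were seen. It was at 3.22, 3.15, 3.16 and 2.81 in tumor-free CDPs and at 2.72, 2.55, 2.66 and 2.62 in tumor-free MDPs. In tumor-bearing mice CDPs were at 3.18, 3.11, 3.14 and 3.03 and MDPs at 2.58, 2.66, 2.63 and 2.69. CDPs lay above MDPs on every array with and without a tumor. The differences were 0.45 ± 0.12 (limma adjusted p = 0.0361) and 0.48 ± 0.12 (limma adjusted p = 0.0252), or 1.36-fold and 1.39-fold, under the fold threshold. With tumor Lbr differed by 0.03 in CDPs and by 0.0027 in MDPs. A second Lbr probe gave 0.33 (limma adjusted p = 0.337) and 0.52 (limma adjusted p = 0.0645) for the step.

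In tumor-bearing mice 0 of 30 members passed between CDPs and MDPs, against 8.02% of all genes. There were 6 of 30 at an unadjusted p under 0.05, against 29.2%, and 6 without overlap between groups, or 20%, against 15.0%. Hmgcs1 was lower in CDPs on every array, at 1.43, 1.22, 1.60 and 1.35 against 2.002, 1.84, 2.07 and 1.77 in MDPs (-0.52 ± 0.16, limma adjusted p = 0.0576). With slide as a block the difference was -0.41 (limma adjusted p = 0.150). Within the slides that held both groups it was -0.25 and -0.42. The second, dimmer Hmgcs1 probe differed the other way, by 0.46 (limma adjusted p = 0.680). Acaca differed by -0.59 ± 0.18 (limma adjusted p = 0.0633), and its 3 other probes by -0.64, -0.66 and -0.69. The files place the Acaca probe used on chromosome 12, like 1 of the other 3, and the remaining 2 (-0.64 and -0.69) on chromosome 11, where RefSeq places the gene. The Fdps probe is likewise placed on chromosome 10 against 3 in RefSeq, and the 2 Fdft1 probes lie far apart on chromosome 14, so that the values of these genes are uncertain. Without tumor-bearing MDP replicate 5 Acaca passed, and without tumor-bearing CDP replicate 4 both Acaca and Hmgcs1 passed. Over all 27433 probes, 3288 passed in the first of these fits and 2291 in the second. The fatty acid genes had a median of -0.27, with 2 of 7 higher, against 0.18 over all genes, which came close to 0 after quantile normalization with the list at -0.36. The list was at -0.14 with normexp and at -0.13 without tumor-bearing CDP replicate 3. The sterol enzymes had a median of 0.09, with 9 of 17 higher, and of -0.09 after quantile normalization.

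**Figure D3:**
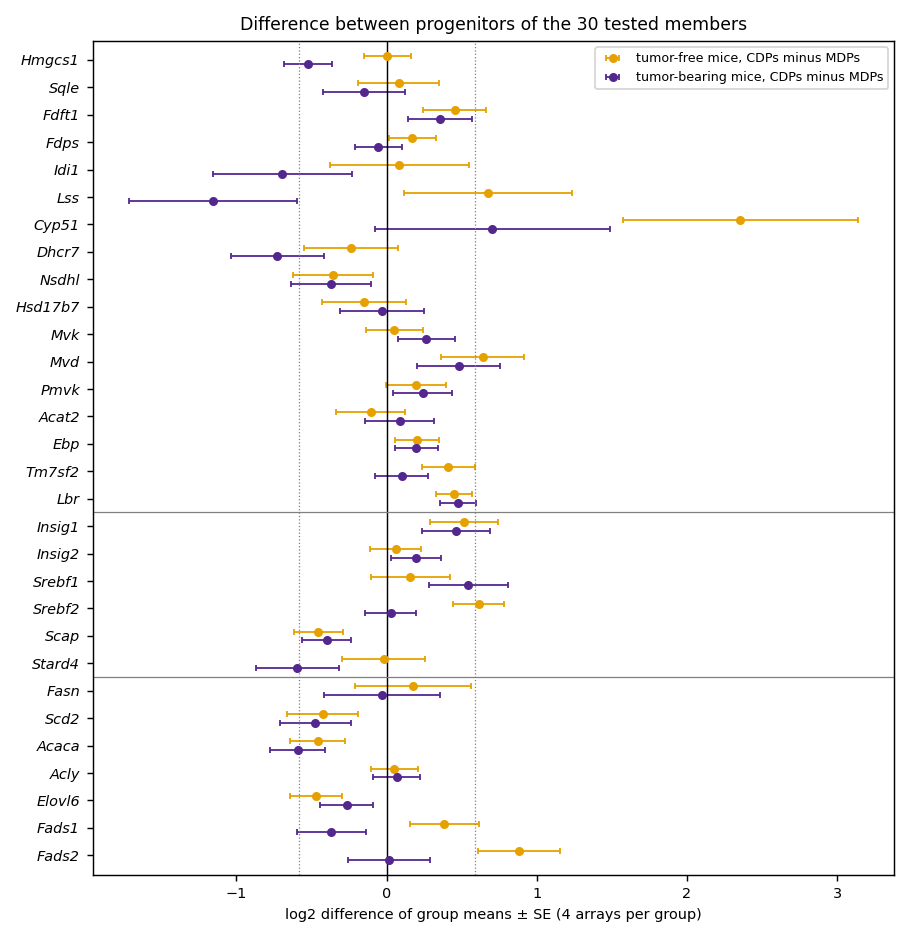
Log2 difference of CDPs minus MDPs (± SE, 4 arrays per group) for the 30 tested members without and with a tumor, in the same order of lists and with dotted lines at a fold of 1.5. Srebf2 (0.61) and Fads2 (0.88) were to the right in tumor-free mice and at 0.03 and 0.02 in tumor-bearing mice, while Lbr was alike in both (0.45 and 0.48).

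Array slide went with the level of several members more than group did. Slide alone took up over 50% of the variance of 8 of 30 members, against 48.9% of all genes, so that the members were not more affected than the rest. Idi1, which makes dimethylallyl diphosphate, was at 0.33, 0.87, 1.12 and 0.71 on the 4 arrays of slide 1 and between -1.004 and 0.16 on the other 12. Dhcr7, the last enzyme of cholesterol synthesis, was between 0.18 and 0.75 on slide 1 and between -1.02 and -0.04 on the others. These were the 2 members with every slide 1 array above every other array. The slide 1 arrays were of tumor-free MDPs (1), tumor-bearing MDPs (2) and tumor-free CDPs (1). With slide as a block the tumor difference of Idi1 in MDPs went from 0.45 to 0.07 and that of Dhcr7 from 0.27 to 0.03. In CDPs the 2 went from -0.33 to 0.04 and from -0.22 to 0.03. Slides held unequal numbers of each group, and what made them differ was not tested.

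**Figure D4:**
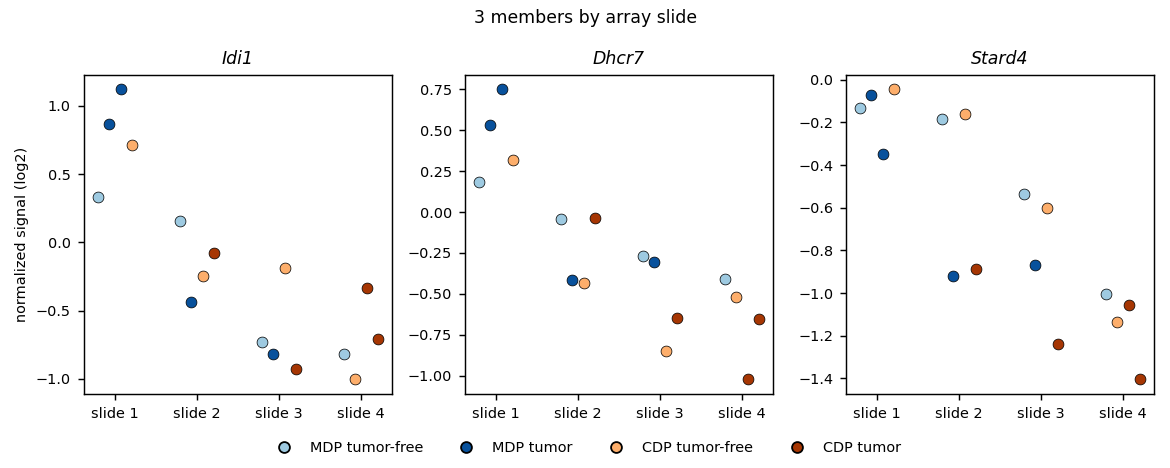
Normalized signal (log2) of Idi1, Dhcr7 and Stard4 on each array by slide, coloured by group. The 4 slide 1 arrays were the highest for Idi1 (0.33 to 1.12) and Dhcr7 (0.18 to 0.75) whatever their group, and Stard4 was lowest on slide 4, where its mean was -1.15.

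Other genes of the same pathways were taken from 3 further lists. Of 7 further sterol synthesis genes tested 0 passed in any of the 5 comparisons (limma), and 1 had an unadjusted p under 0.05 in CDPs with tumor and 0 in MDPs. All 7 were higher in tumor-bearing MDPs, with a median of 0.35 that became 0.05 with slide as a block. Of 19 genes of sterol uptake, export, storage and the LXR response, 1 passed in CDPs with tumor. Soat1, which esterifies cholesterol for storage, rose from 0.75 ± 0.23 to 1.59 ± 0.13 (SD, n = 4), a difference of 0.84 ± 0.15 or 1.79-fold (limma adjusted p = 0.0159). Lrp8, a lipoprotein receptor, was lower in CDPs than in MDPs of tumor-bearing mice (-1.23 ± 0.24, limma adjusted p = 0.0074). Of 29 further fatty acid genes 0 passed with tumor in either progenitor (limma), and at an unadjusted p under 0.05 there were 3 higher and 1 lower in CDPs and 2 higher in MDPs. Elovl7, an elongase, was lower in CDPs than in MDPs in tumor-free (-1.18) and tumor-bearing mice (-1.19), and so was Mecr, of mitochondrial fatty acid synthesis (-0.81 and -0.64). Slc25a1, the citrate carrier of mitochondria, was lower in CDPs than in MDPs of tumor-bearing mice (-0.76). Fabp4, a fatty acid binding protein, was higher in CDPs than in MDPs of tumor-free mice (limma adjusted p = 0.0383). It was above background on 4 of 4 CDP and 0 of 4 MDP arrays, at -3.40 ± 1.99 in CDPs (SD, n = 4). The CDP mean was 3.51-fold above the floor of the MDP arrays, and with that spread this is not a firm minimum.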

How the data were processed

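RNA of 16 samples of sorted bone marrow progenitors was hybridised to one-colour Cy5 Agilent mouse arrays, 1 array per sample. The deposited scanner files hold intensity values that, per the file headers, Agilent Feature Extraction 11.5.1.1 corrected for background and detrended within each array, and probe positions are on build mm9. The authors also deposited a table of log2 values normalized between arrays, for which the submitters' notes name limma. Its scaling method is not given in the sources used here, and it was used as an alternative.

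Control and outlier spots were left out, spots of a probe were averaged, and log2 processed signal minus the 75th percentile of the noncontrol spots of each array was fitted with limma 3.58.1 in R 4.3.3 as 4 group means. Testing covered the 27433 of 39429 probes that the scanner software marked as well above background in 3 or more arrays of any 1 group, and left out 11996. No probe was saturated (0). A call needed a Benjamini-Hochberg FDR under 0.05 over all tested probes and a fold change above 1.5, the thresholds of the study's methods. Exact permutation tests were two-sided. Where a gene was above background on no array of a group, the fold is taken against a floor on each array of that group. The floor is the higher of the lowest signal well above background and the probe's own signal, and the fold is not a firm minimum. The members, lists and markers were chosen with earlier results of these data known. Members called in any comparison, or with an unadjusted p under 0.05 for tumor, are described on every array. Alternatives were other background corrections, scalings, filters, probe rules and tests, slide or replicate number as a block, and leaving out each array. Promoter windows came from RefSeq on GRCm38.p6, not the build of the arrays, and no coordinates were converted. Some single genes of the wider lists are not reported here.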

Additional observations from a re-analysis of the deposited data

Results flagged for a closer look

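In 7 of 124 groups of 4 arrays 1 array stood apart from the other 3 by Dixon's criterion, where chance gives about 1 in 20. Cyp51 was at -3.473 in tumor-bearing MDP replicate 4 against -7.482 to -7.343 on the other 3 arrays. Mvd was at -1.358 in tumor-bearing MDP replicate 5 against -0.624 to -0.54. In tumor-free CDP replicate 5 Acat2 was at 3.869 against 4.465 to 4.509 and Lbr at 2.807 against 3.149 to 3.218. Insig1 was at 0.137 in tumor-free CDP replicate 3 against 0.851 to 0.878. Srebf2 was at 1.137 in tumor-free MDP replicate 2 against 0.52 to 0.616. Scd1, which was above background on no array, was at -5.864 in tumor-bearing MDP replicate 5 against -6.864 to -6.822.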

How the results depend on the processing

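Of 759 recomputed values for 28 results, 26 newly passed the threshold or were larger counts, 29 no longer passed it or were smaller counts, and 704 did neither, where a count was let vary by 1.5 times and a value with no test by less than the spread between replicates. The change of a named gene kept its sign throughout, and medians close to 0 did not. The sterol median ran from -0.162 to 0.0753 in CDPs with tumor and from -0.0915 to 0.186 in the tumor-bearing step, and the fatty acid median from -0.0351 to 0.172 in CDPs with tumor and from -0.123 to 0.122 in the tumor-free step. With tumor, the count of members called in CDPs was 0 and became 1 with slide as a block (Fads2), 2 with the methods' t-test unadjusted (Cyp51 and Fads2), where 1248 and 2081 of all 27433 probes were called, and 0 to 1 on leaving out an array (1, Fads2, without tumor-free MDP replicate 2, with 363 probes called). In MDPs it was 0 under the 13 alternatives run and for the difference between progenitors under the 10 run, and on leaving out each array. Between CDPs and MDPs of tumor-free mice the count was 1 and became 0 with median scaling, with the methods' t-test adjusted and with all probes of a gene averaged, 2 with slide as a block (Fads2 and Srebf2), 2 with FDR alone (Lbr and Srebf2), 3 with the methods' t-test unadjusted (Cyp51, Fads2 and Srebf2; 2925, 1777 and 2993 probes under these 3), and 0 to 2 on leaving out an array. With only the compared groups in the fit, where 1372 of 27433 probes were called, the 1 member was Cyp51, and Srebf2 had a limma adjusted p of 0.114. In tumor-bearing mice the count was 0 and became 1 with probes above background on all 16 arrays, 1 with all probes averaged (Acaca in both, with 1819 of 20830 probes and 1650 of 21911 genes called), 1 with slide as a block (Nsdhl), 1 with FDR alone (Lbr), 3 with the methods' t-test unadjusted (Acaca, Lss and Stard4, with 1732, 2117 and 4127 probes under the last 3), and 0 to 2 on leaving out an array. The cause was not tested. Same-numbered samples did not deviate together (correlation above 0.1 in 8 of 24 pairs, from -0.695 to 0.481), so the numbers were not taken as pairs. With the replicate block the counts were 1 in the tumor-free step and 0 in the other comparisons. Cyp51 and Lss lay close to background, which limits the size of their differences.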
